A study of Mus musculus with 6 samples.

Results

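The *Hbb*-cKO cartilage was examined for the enzymes that build and sulfate glycosaminoglycans, a set of 36 genes taken by name from the 55487 genes of the count table. The set holds 5 genes of the linker, 6 of the chondroitin chain, 7 of chondroitin and dermatan sulfation, 2 dermatan epimerases, 5 of precursor supply, 5 of the heparan chain, 3 of heparan sulfation, 1 hyaluronan synthase and 2 extracellular sulfatases. All 36 were found, and all 36 were among the 17175 genes that passed the filter on low counts. No member differed between the genotypes past the threshold, and the largest differences in either direction were -0.55 (*Chpf*) and 0.40 (*Chst7*) on the log2 scale. The levels of several members did vary widely between the *Hbb*-cKO libraries themselves, as did those of genes that mark chondrocytes.

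Glycosaminoglycans are long sugar chains made of repeating disaccharides. Most are built in the Golgi on a serine of a core protein, first as a short linker that begins with xylose, and then as a chondroitin chain or a heparan chain, which sulfotransferases decorate with sulfate taken from the donor PAPS. Dermatan arises from chondroitin when an epimerase turns glucuronic acid into iduronic acid, and hyaluronan is made at the plasma membrane with neither a core protein nor sulfate. In cartilage the chondroitin sulfate chains of aggrecan hold water and give the tissue its resistance to compression, and heparan sulfate binds growth factors in the growth plate.

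Poly(A) RNA of cartilaginous tissue of the knee joint was sequenced from mice at postnatal day 6 (P6), in 3 WT and 3 *Hbb*-cKO libraries. In the labels the deletion is a conditional one of *Hbb*, the genes of the adult β-globin chain of haemoglobin, in chondrocytes. The floxed mice of the study were made on a C57BL/6J background with a vector that targets exons of both *Hbb-bs* and *Hbb-bt*, and were crossed with *Prx1-Cre*, which acts in limb mesenchyme and its descendants, or with *Col2a1-CreERT2*, which acts in chondrocytes after tamoxifen. The study uses the name *Hbb*-cKO for the cross with *Col2a1-CreERT2*, but its RNA-seq methods state neither the Cre line nor a tamoxifen schedule for these libraries. Whether the WT mice carried floxed alleles or Cre and how many mice made up a library are details that neither labels nor methods give. P-values therefore measure the spread between these libraries, which may be technical in part.

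The 3 WT libraries held 16544800 to 17475496 counts each, and the *Hbb*-cKO libraries 17405688 to 20969914. Summed *Hbb-bs* and *Hbb-bt* were at 16811, 12449 and 6912 CPM, that is counts scaled to the library size, in the 3 WT libraries and at 4195, 5444 and 5014 CPM in the 3 *Hbb*-cKO libraries, so that the genotypes did not overlap and globin RNA was still present in *Hbb*-cKO. The tissue carried chondrocyte markers, of which 12 of 12 were counted in every library, and also those of skeletal muscle, bone and blood cells. In bulk tissue, fewer cells of a type and less RNA per cell cannot be told apart. *Hbb*-cKO replicate 1 stood apart from the other libraries in the 12 chondrocyte markers, whose mean level on the log2 scale, relative to the WT mean, was 0.07, 0.15 and -0.22 in WT and -1.11, 0.60 and 0.06 in *Hbb*-cKO. *Col2a1*, the main collagen of cartilage, was likewise lowest in *Hbb*-cKO replicate 1 and highest in *Hbb*-cKO replicate 2. It was at 26096, 29308 and 22280 CPM in WT and 11307, 38294 and 28358 CPM in *Hbb*-cKO. Without *Hbb*-cKO replicate 1 the median difference over the members was 0.12 in place of 0.02. For the members that this library moved most, the difference without it stands beside the full one.

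Members were compared with each other as CPM per kb of exon length, which corrects for the length of the gene. Summed over all members, this level was 466 ± 20.5 in WT and 463 ± 23.6 in *Hbb*-cKO (mean ± s.e.m., n = 3 each, as for all levels here). The chondroitin chain took the largest share of it in WT (20.1%), followed by chondroitin and dermatan sulfation (17.4%), the linker (14.97%), supply (14.8%), the heparan chain (11.6%), the sulfatases (11.3%), heparan sulfation (5.34%), dermatan epimerization (3.85%) and *Has2* (0.572%). These shares depend on how many members each step holds, and the order of the first steps rests on WT replicate 2, in which the chondroitin chain took 25.2%. Without that library the chondroitin chain took 17.6% and chondroitin and dermatan sulfation 17.8%. In *Hbb*-cKO the corresponding shares were 18.8%, 17.3%, 14.6%, 14.5%, 12.2%, 12.2%, 5.61%, 4.17% and 0.691%, and in each of the 9 steps the ranges of the genotypes overlapped.

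Single members ranged from 1.70 (*Chst13*) to 41.0 CPM per kb (*Chpf*) in WT, with a median of 9.12 against 4.10 for all tested genes. Ordered by the geometric mean of the 3 WT libraries, which gives a single high library less weight, *Sulf2* (40.2), *Chpf* (37.4), *Chst12* (33.7), *B3gat3* (31.1), *Chst11* (26.9) and *Papss1* (26.1) led the set. *Has2* (2.64), *Chsy3* (2.46) and *Chst13* (1.66) were at its end. Of the 35 neighbouring members in this order, 31 had overlapping WT ranges. The 4 steps without overlap lay between *Papss1* and *Ugdh*, *Slc26a2* and *Chst3*, *Ust* and *Has2*, and *Chsy3* and *Chst13*.

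**Figure D1:**
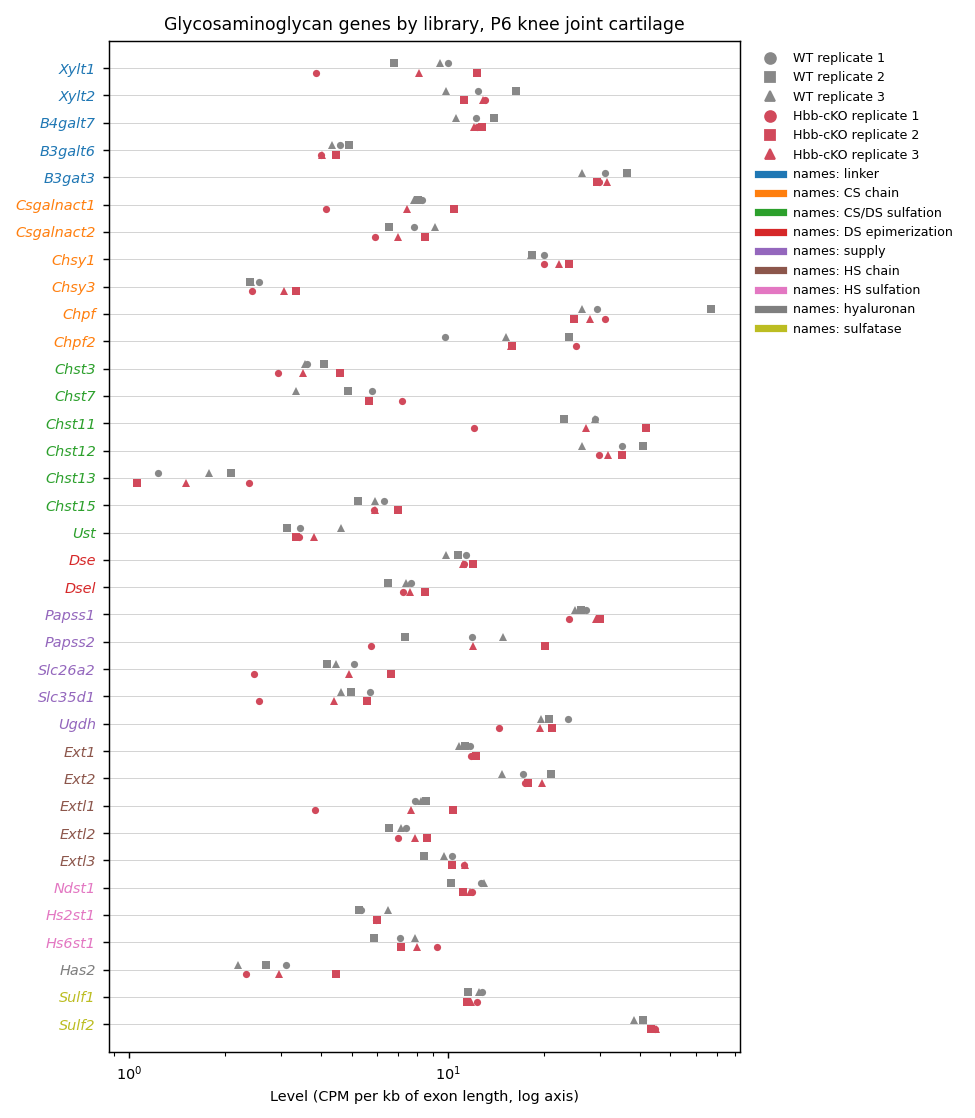
Level of each of the 36 genes in each of the 6 libraries as CPM per kb of exon length on a log axis, with WT in grey, *Hbb*-cKO in red, a marker shape for each replicate and names coloured by step. *Hbb*-cKO replicate 1 (red circles) lies lowest of the 6 libraries for 12 genes, among them *Xylt1*, *Chst11*, *Papss2*, *Slc26a2* and *Extl1*, while the red and grey points of *Sulf1*, *Ext1* and *Dse* lie close together.

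To ask whether deletion of *Hbb* went with a change in these enzymes, WT and *Hbb*-cKO libraries were compared by the quasi-likelihood test of edgeR on the 17175 genes tested. None of the 36 members passed an adjusted p of 0.05, where 18 of all tested genes (0.105%) did, and none had an unadjusted p under 0.05, where 10.1% of all tested genes did. DESeq2 called 0 members at an adjusted p of 0.05 and 0 at an unadjusted p of 0.05, against 1.45% and 9.5% of all tested genes. The smallest adjusted p of a member was 0.536 in edgeR (*Chsy1*) and 0.635 in DESeq2. On the log2 scale, 19 members were higher and 17 lower in *Hbb*-cKO, with a median difference of 0.02 against -0.01 over all tested genes. The median size of the difference, without its sign, was 0.11 for the members and 0.17 for all tested genes.

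The interval around each difference shows what size of change these libraries leave room for. For 32 of the 36 members (88.9%) the 95% interval lay within a 2-fold change in either direction, against 75.1% of all tested genes, and for 22 members (61.1%) within a 1.5-fold change, against 44.4%. The 4 members whose interval reached past 2-fold were *Xylt1*, *Chpf*, *Chpf2* and *Papss2*. The CPM of *Chsy1*, *Ext1* and *Sulf2* was higher in every *Hbb*-cKO library than in any WT library, which is 8.33% of the members against 8.7% of all tested genes, and 0 members were lower without overlap, against 8.96%.

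**Figure D2:**
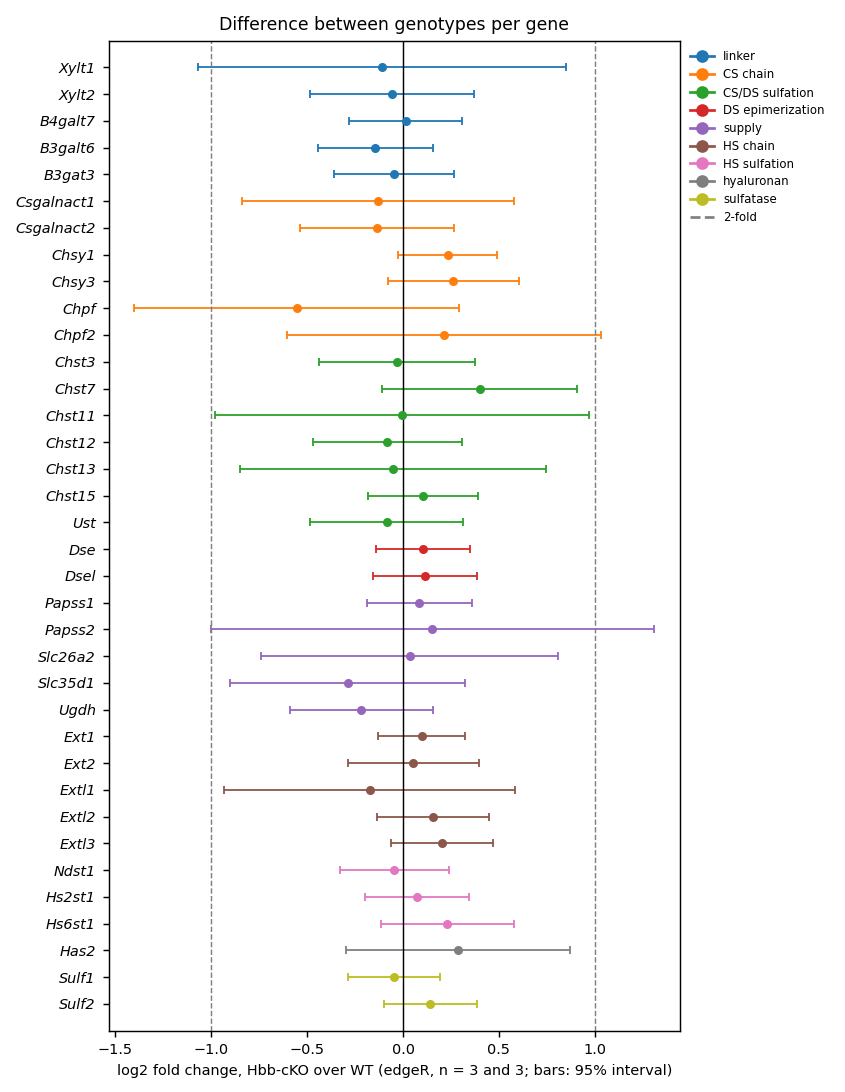
Fitted log2 fold change of each gene in *Hbb*-cKO over WT (edgeR, n = 3 and 3), with bars for the 95% interval, colours for the steps and dashed lines at a 2-fold change. All 36 intervals include 0, and those of *Chpf*, *Papss2*, *Xylt1* and *Chpf2* cross a dashed line.

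The linker genes, which act before the paths to chondroitin and heparan part, gave differences of -0.15 to 0.01 on the log2 scale, with narrow intervals for all but *Xylt1*. *B3gat3*, which adds the glucuronic acid that completes the linker, had the highest level of the 5, at 31.4 ± 2.94 CPM per kb in WT and 30.3 ± 0.653 in *Hbb*-cKO. By library it was at 80.5, 94.7 and 68.3 CPM in WT and 77.2, 76.4 and 81.8 CPM in *Hbb*-cKO. The 3 *Hbb*-cKO libraries lay inside the WT range, and the difference was -0.05 (95% interval -0.36 to 0.27). The galactosyltransferases *B4galt7* (0.01, -0.28 to 0.31) and *B3galt6* (-0.15, -0.45 to 0.16), which add the galactoses of the linker, had similarly narrow intervals.

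Xylosyltransferases start the linker, and the genes for them behaved unlike each other. *Xylt1* was at 96.4, 65.4 and 91.2 CPM in WT and at 37.2, 119 and 78.2 CPM in *Hbb*-cKO, so that *Hbb*-cKO held both the lowest and the highest library. *Xylt2* stayed between 39.2 and 65.3 CPM in all 6 libraries, with a difference of -0.06 (-0.48 to 0.37). The difference of *Xylt1* was -0.11 with an interval of -1.07 to 0.85, and 0.23 without *Hbb*-cKO replicate 1. *Xylt1* made up 40.9% ± 5.97 of the summed level of the pair per kb in WT and 37.9% ± 8.54 in *Hbb*-cKO (difference in log2 ratio -0.21, s.e. 0.66, exact permutation p = 0.7), and the difference in ratio was 0.29 without that library.

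Among the chondroitin chain genes, those for the chondroitin synthases had the narrowest intervals. *Chsy1*, the main synthase gene here with 88.5% ± 0.112 of the summed level of *Chsy1* and *Chsy3* in WT and 88.3% ± 0.444 in *Hbb*-cKO, was at 83.5, 76.9 and 76.2 CPM in WT and at 84.0, 101 and 93.6 CPM in *Hbb*-cKO. Every *Hbb*-cKO value was above every WT value, the closest being 84.0 and 83.5 CPM. The difference of 0.23 (-0.02 to 0.49) had the smallest p of any member (edgeR, adjusted p = 0.536) and did not pass the test. *Chsy3*, its less abundant relative, gave a difference of 0.26 (-0.08 to 0.61), and 0.39 without *Hbb*-cKO replicate 1.

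*Chpf* and *Chpf2* code for the partner proteins that the synthases need to polymerize the chain. *Chpf* was at 113, 259 and 102 CPM in WT and at 120, 95.9 and 108 CPM in *Hbb*-cKO. WT replicate 2 alone lay high, and the other 2 WT libraries fell among those of *Hbb*-cKO. The difference of -0.55 (-1.40 to 0.29) came to 0.01 without WT replicate 2. *Chpf2* was at 55.0, 134 and 85.1 CPM in WT and at 141, 88.7 and 88.3 CPM in *Hbb*-cKO, with a difference of 0.21 (-0.60 to 1.03) that came to -0.04 without *Hbb*-cKO replicate 1. Exons of *Smarcd3*, on the opposite strand, cover 44.1% of the exon length of *Chpf2*, and no source states the strand setting of the counting, so reads of these neighbours may not be told apart. *Chpf* held 70.7% ± 3.61 of the pair in WT and 60.0% ± 2.56 in *Hbb*-cKO (difference in log2 ratio -0.70, s.e. 0.29, exact permutation p = 0.2).

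*Csgalnact1* and *Csgalnact2*, whose enzymes add the first N-acetylgalactosamine and so commit the linker to chondroitin, were close in level at 8.06 ± 0.137 and 7.84 ± 0.752 CPM per kb in WT. *Csgalnact1* was at 42.3, 41.0 and 39.9 CPM in WT and at 21.1, 53.4 and 38.0 CPM in *Hbb*-cKO. The WT libraries lay within a few CPM of each other while the *Hbb*-cKO libraries spread to both sides of them. The differences were -0.13 (-0.84 to 0.58) for *Csgalnact1* and -0.14 (-0.54 to 0.26) for *Csgalnact2*, and without *Hbb*-cKO replicate 1 they were 0.16 and -0.01.

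Sulfation at position 4 of N-acetylgalactosamine is the main modification of chondroitin in growing cartilage, and *Chst11* and *Chst12* of that branch had the highest levels of the 7 genes for sulfation of chondroitin and dermatan. *Chst12* was the highest of the 7, at 34.3 ± 4.28 CPM per kb in WT and 32.4 ± 1.54 in *Hbb*-cKO. It was at 83.4, 97.1 and 62.4 CPM in WT and at 70.7, 83.1 and 75.5 CPM in *Hbb*-cKO, all 3 of them inside the WT range. *Chst11*, a 4-O-sulfotransferase like it, was at 160, 128 and 160 CPM in WT and at 66.7, 231 and 150 CPM in *Hbb*-cKO. The spread within *Hbb*-cKO was over 3-fold, the group means of 150 ± 10.7 and 149 ± 47.4 CPM were nearly equal, and the difference was -0.00 (-0.98 to 0.97), or 0.35 without *Hbb*-cKO replicate 1. *Chst12* gave -0.08 (-0.47 to 0.31). *Chst11* held 44.5% ± 4.71 of the summed level of the pair in WT and 43.0% ± 7.52 in *Hbb*-cKO (exact permutation p = 1, difference in log2 ratio -0.11, or 0.33 without *Hbb*-cKO replicate 1), at 28.7% in *Hbb*-cKO replicate 1 and 54.3% in *Hbb*-cKO replicate 2. *Chst13*, the third of these genes, was between 1.75 and 3.92 CPM in the 6 libraries. Its difference was -0.05 (-0.85 to 0.75), or -0.39 without *Hbb*-cKO replicate 1.

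The promoters of *Chst11* and *Chst12* are shown because these genes serve the same reaction and differed in how far *Hbb*-cKO replicate 1 departed from the other *Hbb*-cKO libraries, by -1.51 on the log2 scale for *Chst11* and by -0.17 for *Chst12*. Each window is RefSeq sequence of GRCm38.p6 from 250 bases before to 50 bases after a transcript start, read 5′ to 3′. Capitals mark ACGTG or its reverse complement CACGT, a form of the core letters bound by hypoxia-inducible factors. The other form, GCGTG or CACGC, was neither searched nor marked, and it occurs in both windows below. Matches are counted for ACGTG and CACGT only. The *Chst11* window (chr10:82985247-82985546, plus strand) holds 1 match and 34 CpG, and the *Chst12* window (chr5:140505359-140505658, plus strand) holds 0 matches and 24 CpG.
*Chst11*: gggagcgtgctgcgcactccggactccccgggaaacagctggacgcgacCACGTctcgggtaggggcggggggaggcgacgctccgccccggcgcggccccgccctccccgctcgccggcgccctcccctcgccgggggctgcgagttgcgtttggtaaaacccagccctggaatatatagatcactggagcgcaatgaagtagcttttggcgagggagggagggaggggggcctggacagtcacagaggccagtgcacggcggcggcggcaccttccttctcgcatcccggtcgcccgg
*Chst12*: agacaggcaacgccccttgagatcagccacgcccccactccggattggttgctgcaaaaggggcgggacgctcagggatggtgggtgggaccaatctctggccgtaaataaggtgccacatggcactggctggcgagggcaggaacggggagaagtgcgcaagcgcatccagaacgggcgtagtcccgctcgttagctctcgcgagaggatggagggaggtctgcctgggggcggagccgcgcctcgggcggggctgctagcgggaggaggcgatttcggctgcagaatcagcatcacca

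Sulfation at position 6 and the rarer modifications were at lower levels. *Chst3* and *Chst7*, the 6-O-sulfotransferase genes, were at 3.76 ± 0.164 and 4.67 ± 0.711 CPM per kb in WT. *Chst7* gave the highest difference of the set, 0.40 (-0.11 to 0.91, edgeR, adjusted p = 0.585), from 12.8, 10.8 and 7.38 CPM in WT and 15.9, 12.5 and 12.5 CPM in *Hbb*-cKO. WT replicate 1 lay above 2 of the *Hbb*-cKO libraries, so the genotypes overlapped. Its rank changed when single libraries were left out. The difference was 0.209 without WT replicate 3, where *Papss2* (0.40), *Hs6st1* (0.33), *Chsy3* (0.25), *Extl3* (0.22) and *Chsy1* (0.211) were higher. It was 0.28 without *Hbb*-cKO replicate 1, where *Papss2* (0.51), *Has2* (0.48), *Chsy3* (0.39), *Chst11* (0.35), *Slc26a2* (0.35) and *Chsy1* (0.31) were higher. Without WT replicate 2 it was 0.44, where *Chpf2* (0.61) was higher. *Chst3* gave -0.03 (-0.44 to 0.37), or 0.11 without *Hbb*-cKO replicate 1, and its share of the pair was 45.3% ± 3.8 in WT and 37.4% ± 4.60 in *Hbb*-cKO (exact permutation p = 0.2). *Chst15*, which adds a further sulfate to the 4-sulfated residue, gave 0.10 (-0.18 to 0.39), and 17.9% of its exon length is shared with a predicted gene on the opposite strand. *Ust*, which sulfates the uronic acid, gave -0.09 (-0.48 to 0.31).

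The genes of the dermatan epimerases varied little between the 6 libraries. *Dse* was at 56.8, 53.7 and 49.2 CPM in WT and at 55.9, 59.7 and 55.8 CPM in *Hbb*-cKO, with a difference of 0.10 (-0.14 to 0.35). *Dsel* gave 0.12 (-0.16 to 0.39). *Dse* held 59.8% ± 1.51 of their summed level in WT and 59.6% ± 0.671 in *Hbb*-cKO, and with an s.e. of 0.099 the difference in log2 ratio of -0.01 had one of the 3 smallest errors of the 10 pairs.

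The supply genes bring in sulfate, make PAPS from it and provide the nucleotide sugars. *Papss1* and *Papss2* code for the PAPS synthetases, and *Papss2* is the one whose loss is known to impair the skeleton. *Papss1* was the higher, at 82.8, 80.0 and 76.6 CPM in WT and at 73.3, 91.7 and 89.1 CPM in *Hbb*-cKO (0.09, -0.19 to 0.36, or 0.19 without *Hbb*-cKO replicate 1). *Papss2* was at 44.4, 27.2 and 55.4 CPM in WT and at 21.4, 75.4 and 44.5 CPM in *Hbb*-cKO, the widest relative spread in the set. Its interval of -1.002 to 1.31 around 0.15 leaves room for a change of 2-fold either way, and the difference was 0.51 without *Hbb*-cKO replicate 1. The share of *Papss1* was 70.1% ± 4.46 in WT and 70.4% ± 6.06 in *Hbb*-cKO (exact permutation p = 0.9, difference in log2 ratio 0.05, or -0.33 without *Hbb*-cKO replicate 1), and by library it ran from 59.7% in *Hbb*-cKO replicate 2 to 80.7% in *Hbb*-cKO replicate 1.

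The *Papss1* and *Papss2* promoters are printed for the same reason as those above, since *Hbb*-cKO replicate 1 departed from the other *Hbb*-cKO libraries by -0.30 for *Papss1* and by -1.49 for *Papss2* on the log2 scale. Both genes have 2 windows, and the one nearest to the start of the gene in the count table is printed. The *Papss1* window (chr3:131564518-131564817, plus strand) holds 1 match to ACGTG or CACGT and 27 CpG. The *Papss2* window (chr19:32595465-32595764, plus strand) holds 2 matches and 27 CpG. The other window of *Papss1* holds 0 matches and 6 CpG, and that of *Papss2* 0 matches and 1 CpG. A match is a run of letters and not a measured binding site. Other members with a window include *Extl1* and *Slc35d1*, where *Hbb*-cKO replicate 1 departed by -1.23 and -0.96. Their windows hold 0 matches, and that of *Extl1* lies 11053 bases from the start of the gene. The window of *Chsy1* (departure -0.21) holds 3 matches, and those of *Ext2* (-0.10) and *B4galt7* (-0.009) hold 2 each. Whether matches go with the departure was not tested.
*Papss1*: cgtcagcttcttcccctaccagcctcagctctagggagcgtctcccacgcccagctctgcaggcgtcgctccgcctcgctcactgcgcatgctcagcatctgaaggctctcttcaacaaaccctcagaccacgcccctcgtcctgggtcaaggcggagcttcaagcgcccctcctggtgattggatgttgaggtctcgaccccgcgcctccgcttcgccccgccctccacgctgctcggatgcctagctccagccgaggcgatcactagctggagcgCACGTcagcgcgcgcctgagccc
*Papss2*: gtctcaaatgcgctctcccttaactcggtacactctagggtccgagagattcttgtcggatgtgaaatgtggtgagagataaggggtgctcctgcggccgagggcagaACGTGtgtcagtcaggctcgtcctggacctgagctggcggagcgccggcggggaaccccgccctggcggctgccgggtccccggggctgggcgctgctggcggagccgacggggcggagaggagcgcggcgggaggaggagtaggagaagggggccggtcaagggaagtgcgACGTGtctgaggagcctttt

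Windows of this kind were found for 27 of the 36 members, 34 windows in all, and were set beside all 32851 windows of 27025 genes. The members' windows had a median GC content of 65.7% against 52.7%, and a median ratio of observed to expected CpG of 0.719 against 0.384. ACGTG in either direction was in 9 of the 34 (26.5%) against 19.6% of all windows. The GC box GGGCGG was in 22 (64.7%) against 35.7%. ACAAT, the core letters of SOX proteins, was in 6 (17.65%) against 31.0% of all windows, and the TATA box TATAAA in 1 (2.94%) against 13.6%. These motifs were searched on both strands. No test was made of these shares, which describe the windows only.

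*Slc26a2*, the sulfate transporter of the plasma membrane whose defects cause chondrodysplasia, was at 62.9, 51.6 and 55.0 CPM in WT and at 30.6, 82.4 and 60.5 CPM in *Hbb*-cKO, which again lay on both sides of WT (0.03, -0.74 to 0.81, or 0.35 without *Hbb*-cKO replicate 1). *Slc35d1*, which carries nucleotide sugars into the secretory pathway, was at 48.6, 42.4 and 39.4 CPM in WT and at 21.8, 47.5 and 37.4 CPM in *Hbb*-cKO (-0.29, -0.90 to 0.32), and the difference was -0.03 without *Hbb*-cKO replicate 1. *Ugdh*, the enzyme that makes UDP-glucuronic acid for chondroitin, heparan and hyaluronan alike, gave -0.22 (-0.59 to 0.16), or -0.07 without that library. *Hbb*-cKO replicate 1 was the lowest of the 6 libraries for all 5 supply genes.

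Of the heparan chain genes, *Ext1* and *Ext2*, which together form the heparan polymerase, had the highest levels and narrow intervals. *Ext2* was at 126, 155 and 108 CPM in WT and at 128, 131 and 145 CPM in *Hbb*-cKO (0.05, -0.29 to 0.40). *Ext1* was at 95.04, 91.6 and 87.5 CPM in WT and at 95.6, 98.8 and 98.7 CPM in *Hbb*-cKO, without overlap but with a difference of only 0.10 (-0.13 to 0.32). *Ext1* held 39.3% ± 2.22 of the pair in WT and 39.7% ± 0.756 in *Hbb*-cKO (exact permutation p = 0.9). *Extl2* (0.16, -0.14 to 0.45) and *Extl3* (0.20, -0.06 to 0.47), relatives of the exostosins of which *Extl3* takes part in starting the heparan chain, were also near 0. *Extl1*, another relative, was at 34.3, 37.1 and 35.7 CPM in WT and at 16.7, 44.96 and 33.1 CPM in *Hbb*-cKO, low in replicate 1 as for *Csgalnact1* (-0.18, -0.93 to 0.58, or 0.14 without that library).

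Heparan sulfation was measured by 3 members, of which *Ndst1*, which replaces acetyl groups by sulfate and opens the chain to the later enzymes, was the highest. It was at 106, 84.8 and 107 CPM in WT and at 98.9, 92.3 and 97.4 CPM in *Hbb*-cKO, inside the WT range in all 3 (-0.05, -0.33 to 0.24). *Hs2st1*, which sulfates the uronic acid, gave 0.07 (-0.20 to 0.34), and *Hs6st1*, which sulfates glucosamine at position 6, gave 0.23 (-0.12 to 0.58), or 0.13 without *Hbb*-cKO replicate 1. *Has2*, the hyaluronan synthase of the set, was at 13.2, 11.4 and 9.35 CPM in WT and at 9.89, 18.8 and 12.6 CPM in *Hbb*-cKO (0.29, -0.30 to 0.87, or 0.48 without *Hbb*-cKO replicate 1), with overlap of the genotypes.

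*Sulf1* and *Sulf2* code for secreted enzymes that remove 6-O-sulfates from finished heparan chains, and the levels of both were even across the 6 libraries. *Sulf2* was at 241, 242 and 226 CPM in WT and at 263, 255 and 264 CPM in *Hbb*-cKO (0.14, -0.10 to 0.38, edgeR, adjusted p = 0.706). *Sulf1* was at 144, 131 and 141 CPM in WT and at 139, 130 and 133 CPM in *Hbb*-cKO (-0.05, -0.29 to 0.19). The first was higher in every *Hbb*-cKO library and the second was not apart. *Sulf1* therefore took 23.7%, 22.0% and 24.5% of their summed level per kb in WT and 21.6%, 20.96% and 20.8% in *Hbb*-cKO. This was the 1 pair of the 10 whose ratio did not overlap between the genotypes (difference in log2 ratio -0.19, s.e. 0.064). Its exact permutation p of 0.1 is the smallest that 3 libraries against 3 allow, and came to 0.667 after adjustment over the 10 pairs.

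**Figure D3:**
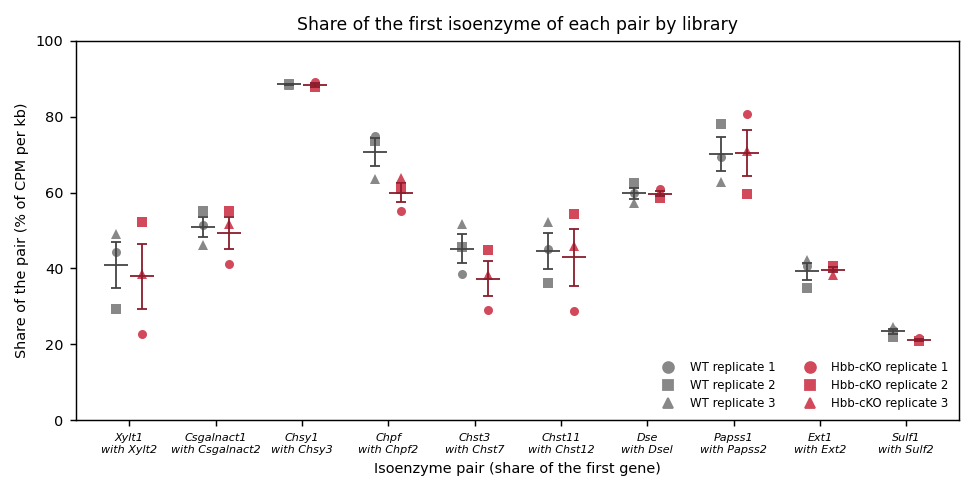
Share of the first gene of each isoenzyme pair in the summed CPM per kb of the pair, by library, with the mean and s.e.m. per genotype (n = 3 each). WT (grey) and *Hbb*-cKO (red) overlap in 9 of the 10 pairs, the shares of *Xylt1*, *Chst11* and *Papss1* spread most within *Hbb*-cKO, and for *Sulf1* all 3 red points lie below the grey ones.

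The members differed in how far *Hbb*-cKO replicate 1, the library low in chondrocyte markers, lay from the rest, a comparison made after the values were seen. Relative to the other 2 *Hbb*-cKO libraries, *Hbb*-cKO replicate 1 was at -1.51 for *Chst11*, -1.49 for *Papss2*, -1.41 for *Xylt1*, -1.23 for *Extl1*, -1.22 for *Slc26a2*, -1.12 for *Csgalnact1* and -0.96 for *Slc35d1* on the log2 scale. Of the other genes in the pairs of these members, *Xylt2* was at 0.11, *Chst12* at -0.17, *Papss1* at -0.30 and *Csgalnact2* at -0.39. *Hbb*-cKO replicate 1 was close to the others for *Sulf2* (0.02) and *Hs2st1* (-0.01), and above the others for *Chst13* (0.88) and *Chpf2* (0.67). *Hbb*-cKO replicate 1 was the lowest of the 6 libraries for 12 members (33.3%) against 15.7% of all tested genes. WT replicate 3 was the lowest for 11 members (30.6%) against 21.8%, and WT replicate 2 for 9 (25%) against 23.9%. *Hbb*-cKO replicate 2, in which the chondrocyte markers were highest, was the highest for 16 members (44.4%) against 14.6%.

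Over the 6 libraries, Pearson's r with the mean level of the 12 chondrocyte markers was over 0.9 for 6 members (16.7%) against 1.04% of all tested genes, and the median r was 0.38 for the members and -0.02 for all tested genes. *Csgalnact1* gave r = 0.973 and Spearman's rho = 0.886 (permutation p = 0.013 and 0.033), *Extl1* 0.961 and 0.829 (0.018 and 0.058), *Slc26a2* 0.955 and 0.657 (0.015 and 0.175), *Chst3* 0.931 and 0.943 (0.013 and 0.017), *Chst11* 0.928 and 0.600 (0.029 and 0.242) and *Slc35d1* 0.924 and 0.771 (0.032 and 0.103). After adjustment over the 36 members, no p was under 0.05, and the smallest was 0.130 for r and 0.370 for rho. The 2 libraries farthest from the median were *Hbb*-cKO replicates 1 and 2. Without them r was 0.22 for *Csgalnact1*, -0.01 for *Extl1*, 0.05 for *Slc26a2*, 0.54 for *Chst3*, -0.66 for *Chst11* and 0.34 for *Slc35d1*. The high r values over all 6 libraries thus rest largely on those 2. The remaining libraries spanned only -0.22 to 0.15 in marker level, too narrow a range to decide whether the relation holds without them. With 3 libraries a genotype, it could not be given within a genotype.

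**Figure D4:**
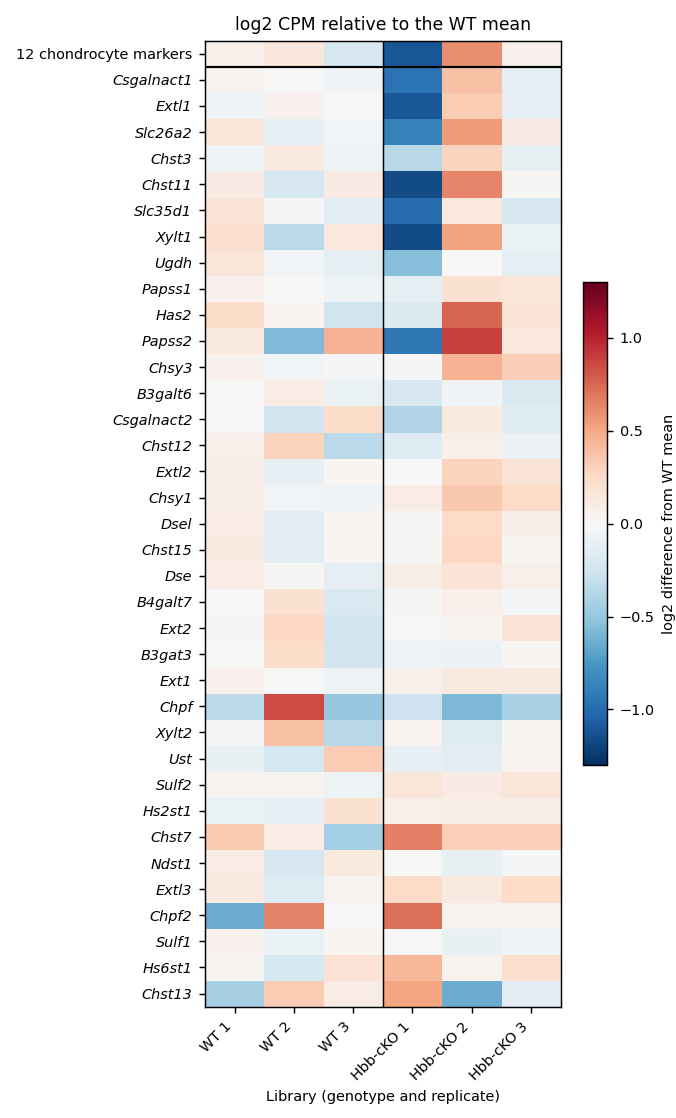
Level of each gene in each library as the difference in log2 CPM from the WT mean, with the mean of the 12 chondrocyte markers in the top row and the genes ordered by their correlation with it. In *Hbb*-cKO replicate 1 the upper rows are blue and in *Hbb*-cKO replicate 2 red, whereas rows such as *Ext1*, *Sulf2* and *Dse* stay pale in all 6 libraries, and *Chpf* is red in WT replicate 2.

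With the chondrocyte marker level as a covariate in edgeR, a fit added after the data were seen, 0 members were called. The intervals of the members named above for their high r narrowed. These members had been picked by their correlation with the same marker level in the same libraries, so the narrowing follows from that choice. It adds nothing to the correlations themselves. The s.e. of the *Chst11* difference went from 0.41 to 0.19, and the difference was -0.05 (-0.49 to 0.39). That of *Csgalnact1* went from 0.30 to 0.12, with a difference of -0.12 (-0.41 to 0.16), and that of *Slc26a2* from 0.33 to 0.14, with 0.03 (-0.30 to 0.37). *Slc35d1* came to -0.26 (-0.55 to 0.02, edgeR, adjusted p = 0.546) and *Chsy1* to 0.25 (-0.00 to 0.51, adjusted p = 0.524), and no member changed direction.

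Markers of other cell types were read from lists of which no gene was called in edgeR. Of 10 skeletal muscle genes, 8 were lower in *Hbb*-cKO (summed 29868 to 47973 CPM in WT and 23985 to 33266 CPM in *Hbb*-cKO, with overlap). All 7 neutrophil genes were higher (16.4 to 36.1 CPM and 26.0 to 120.5 CPM, with overlap), and so were all 10 proliferation genes (250.5 to 312 CPM and 430.4 to 500.3 CPM, without overlap), and no gene of these lists was at 0 throughout. The neutrophil sum of *Hbb*-cKO replicate 2 was 26.0 CPM, below that of WT replicate 1 at 36.1 CPM. Unadjusted p was under 0.05 for 4 skeletal muscle, 9 proliferation and 7 neutrophil genes, against 10.1% of all tested genes. The sums of 5 further lists overlapped between the genotypes. Genes higher in *Hbb*-cKO were 5 of 5 for adipocytes, 5 of 6 for hypertrophic chondrocytes, 6 of 7 for macrophages, 0 of 6 for osteoclasts and 0 of 5 for Schwann cells. The endothelium (437 to 531 and 556 to 638 CPM) and tendon and fibroblast sums (2768 to 3271 and 3317 to 3589 CPM) also did not overlap. The osteoblast sum (20864 to 23749 and 24679 to 37922 CPM) and the erythroid sum (199.9 to 523 and 125 to 150 CPM) did not overlap either, although the mean log2 levels of both lists did, and 4 of the 6 erythroid genes were higher in *Hbb*-cKO where the sum was lower. Of all tested single genes, 8.7% were higher and 8.96% lower without overlap, but these shares are not a background for sums over lists. Among the 6 libraries, *Hbb*-cKO replicate 1 had the highest sums for osteoblasts, osteoclasts, neutrophils, macrophages, adipocytes, endothelium and tendon and fibroblasts. Its chondrocyte sum was the lowest. Another library was highest for hypertrophic chondrocytes, skeletal muscle, erythroid cells, Schwann cells and proliferation. The part of these cell types in the members' values was not tested beyond the muscle covariate, with which 0 members were called.

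The remaining genes of glycosaminoglycan metabolism were read from a list of 59, of which 58 were found by symbol and 53 tested. None was called in edgeR, 26 were higher and 27 lower in *Hbb*-cKO, and the median difference was -0.00 on the log2 scale. Of these 53, 3 were higher and 1 lower at an unadjusted p under 0.05, against 4.89% and 5.22% of all tested genes. *Hs3st6*, a heparan 3-O-sulfotransferase gene, was at 2.87, 4.20 and 2.94 CPM in WT and at 6.31, 7.62 and 6.28 CPM in *Hbb*-cKO (1.012, 0.51 to 1.51), with an adjusted p of 0.180 in edgeR and 0.016 in DESeq2. It was the only one of the 53 that DESeq2 called, where it called 1.45% of all tested genes.

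Breakdown enzymes followed. *Hpse*, the heparanase gene, was at 4.55, 4.20 and 2.02 CPM in WT and at 6.48, 6.92 and 6.61 CPM in *Hbb*-cKO (0.89, 0.22 to 1.57, edgeR, adjusted p = 0.346). *Hgsnat*, whose lysosomal enzyme acetylates heparan sulfate during its breakdown, was at 55.5, 57.9 and 49.3 CPM in WT and at 33.6, 41.2 and 38.5 CPM in *Hbb*-cKO (-0.52, -0.80 to -0.24, edgeR, adjusted p = 0.227). For both the genotypes did not overlap, and neither passed the threshold. Of all tested genes, 8.7% were higher and 8.96% lower without overlap. Among the 53, *Hs3st6*, *Chst2*, *Pgm3* and *Ndst2* were also higher without overlap, and *Gfpt2* was lower. Of the others nearest to it, *Chst2*, a sulfotransferase of keratan sulfate, gave 0.38 (0.03 to 0.73), *Hyal1*, a hyaluronidase, 0.45 (-0.13 to 1.02) and *Pgm3*, of the same hexosamine route as *Gfpt2*, 0.25 (-0.09 to 0.58). Lower in *Hbb*-cKO, *Gfpt2*, which controls entry into the hexosamine pathway, gave -0.38 (-0.76 to 0.00), *Slc35b3*, a PAPS transporter of the Golgi, -0.29 (-0.62 to 0.04), *Hs3st3a1* -0.52 (-1.13 to 0.08) and *Hyal2* -0.35 (-0.75 to 0.06).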

How the data were processed

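RNA-seq of P6 knee joint cartilage was analysed in 3 WT and 3 *Hbb*-cKO libraries, grouped by the genotype in the labels. The authors deposited 1 table of gene counts, which are raw whole numbers. Per the submitters' processing notes, reads came from CASAVA 1.8 and went through fastp 0.19.5, and the notes also list HISAT2 2.1.0 with StringTie and edgeR, both without a version. No source used here gives the build or the strand setting of the counting, but the positions of all 36 members in the table equal those of GENCODE M21 (GRCm38), from which exon lengths were taken. Libraries were made with the TruSeq RNA kit and read on an Illumina HiSeq sequencer.

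Genes were filtered by edgeR (minimum count 10, minimum total 15), scaled by TMM factors and tested by the quasi-likelihood test with robust dispersions (edgeR 4.0.16, R 4.3.3), with Benjamini-Hochberg adjustment over all 17175 tested genes, a two-sided test and a threshold of 0.05. Differences are *Hbb*-cKO minus WT on the log2 scale, and 95% intervals come from the fit. CPM used the same factors, and log2 CPM a prior count of 2. Ratios of 10 isoenzyme pairs were compared by two-sided exact permutation tests over all 20 assignments, and correlations over all 720 orders of the 6 libraries. Counts of any pair of libraries differed beyond sampling noise (chi-square per gene 20.2 to 55.2 over 15 pairs), so none was counted as a repeat of another, which does not show that they are separate animals. The fit was tested on simulated data.

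The members, lists, pairs and markers were chosen with earlier results of these data known. By rule, values per library are given for members with an unadjusted p under 0.05, for the highest member per kb in each step and for a pair whose ratio did not overlap, and the 5 other pathway genes with the smallest p in each direction are named. Values per library of further members were added after they were seen. As alternatives, DESeq2 1.42.0 was run, and edgeR was repeated with RLE factors, with TMM factors that leave out globin and muscle genes, with 2 other filters, at an adjusted p of 0.10, with a replicate block and without each library in turn. The 2 covariates were added after the data were seen.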

Additional observations from a re-analysis of the deposited data

How the results depend on the processing

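The call of 0 members held under 15 alternatives, and the smallest adjusted p of a member was 0.449 (*Hs6st1*, leaving out 1 library). The number of genes called among all those tested was less stable. It was 18 in the report, 249 with DESeq2, 60 with no filter on low counts, 41 at an adjusted p of 0.10, 4 with a replicate block, 4 with the skeletal muscle level and 6 with the chondrocyte level as a covariate, and between 1 (without WT replicate 1) and 39 (without WT replicate 3) when single libraries were left out, with 6 without *Hbb*-cKO replicate 2 and 2 without *Hbb*-cKO replicate 3. The cause was not tested. DESeq2 called 1 of the other pathway genes, where edgeR called 0. The median difference over the members lay between -0.0080 and 0.12 when single libraries were left out, at 0.12 without *Hbb*-cKO replicate 1, and was -0.0070 with the replicate block. The labels number the libraries alike in both genotypes, but same-numbered libraries did not deviate together (correlations of -0.0260, -0.108 and -0.0290), so the number was not taken as a pairing, and the block called 0 members.

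In fits with all 6 libraries, the direction changed for *Chst11*, at 0.0030 with DESeq2, 0.0032 with RLE factors and 0.011 with no filter, and for *Slc26a2*, at -0.066 with the replicate block. With the skeletal muscle level as a covariate it changed for 9 members, with differences of -0.068 for *B4galt7*, 0.21 for *Chst13*, 0.078 for *Ust*, -0.0076 for *Papss1*, -0.038 for *Papss2*, -0.31 for *Slc26a2*, -0.041 for *Ext2*, 0.0024 for *Ndst1*, -0.040 for *Has2*. Leaving out single libraries gave a range across 0 for 18 members, -0.55 to 0.23 for *Xylt1*, -0.043 to 0.61 for *Chpf2*, -0.46 to 0.35 for *Chst11*, -0.13 to 0.016 for *Ndst1*, -0.22 to 0.16 for *Xylt2*, -0.16 to 0.091 for *B3gat3*, -0.79 to 0.014 for *Chpf*, -0.22 to 0.11 for *Chst3*, -0.24 to 0.082 for *Chst12*, -0.39 to 0.19 for *Chst13*, -0.36 to 0.51 for *Papss2*, -0.31 to 0.35 for *Slc26a2*, -0.080 to 0.13 for *B4galt7*, -0.18 to 0.10 for *Ust*, -0.061 to 0.21 for *Ext2*, -0.47 to 0.16 for *Csgalnact1*, -0.52 to 0.14 for *Extl1*, -0.0075 to 0.48 for *Has2*. For the log2 ratios of 7 pairs the same gave -0.66 to 0.29 for *Xylt1* over *Xylt2*, -0.26 to 0.15 for *Csgalnact1* over *Csgalnact2*, -0.081 to 0.020 for *Chsy1* over *Chsy3*, -0.45 to 0.33 for *Chst11* over *Chst12*, -0.090 to 0.068 for *Dse* over *Dsel*, -0.33 to 0.42 for *Papss1* over *Papss2*, -0.10 to 0.12 for *Ext1* over *Ext2*. The 3 pairs *Chpf* over *Chpf2*, *Chst3* over *Chst7* and *Sulf1* over *Sulf2* stayed below 0. Division by exon length does not change the difference of a ratio. The members' intervals set the limit at this number of libraries, and 14 of them leave room for a change of 1.5-fold or more.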
